A study of Mus musculus with 20 samples.

Results

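The Ifi200 family was followed through 7 genes that were listed by name, Ifi203, Ifi204, Ifi207, Ifi209, Ifi211, Ifi213 and Mndal. All 7 were found among the 39056 genes of the count table. The list was not chosen by a threshold on any measured value, but earlier results of these data were known when it was chosen. RNA was sequenced from the left hippocampus of 20 female C57BL/6 mice aged 12 to 13 months, with 1 library per mouse. The mice formed 4 groups of 5, in which miR-34a was intact (WT, miR34a+/+) or deleted (KO, miR34a-/-) and the transgene was absent (Non-Tg) or present (Tg-SwDI). Tg-SwDI mice carry human amyloid precursor protein with the Swedish, Dutch and Iowa mutations under the Thy1 promoter, which is active in neurons, and miR-34a was deleted constitutively, so that every cell type lacked it. The tissue was sequenced whole, so a change in the number of cells that make a transcript and a change in the RNA made per cell cannot be told apart.

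Ifi200 proteins belong to the PYHIN family, in which a pyrin domain that binds other proteins is usually joined to HIN domains that bind DNA. Many of the genes are switched on by type I interferon, through a transcription factor complex that binds the interferon-stimulated response element. In the brain, microglia and other myeloid cells are the cells best known for interferon-induced PYHIN expression. Ifi204 is the best studied member and is regarded as a mouse counterpart of human IFI16, a DNA sensor that signals through STING.

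The 7 genes lie together on chromosome 1 (GRCm38, the assembly also called mm10) between 173566283 and 173942672, a span of 376.4 kb. From low to high coordinates the order was Ifi213 (173566283 to 173599274), Ifi209 (173630917 to 173647928), Ifi207 (173723427 to 173741747), Ifi204 (173747293 to 173766943), Mndal (173849126 to 173942491), Ifi211 (173896345 to 173913046) and Ifi203 (173920407 to 173942672). Ifi209 is on the plus strand and the other 6 are on the minus strand. The annotated span of Mndal encloses Ifi211 and covers most of Ifi203, but only 37 exonic bases of Ifi203 overlap exons of Mndal. The span also holds Ifi208 and 5 pseudogenes, of which Ifi203-ps had 86 reads over all 20 mice.

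**Figure D1:**
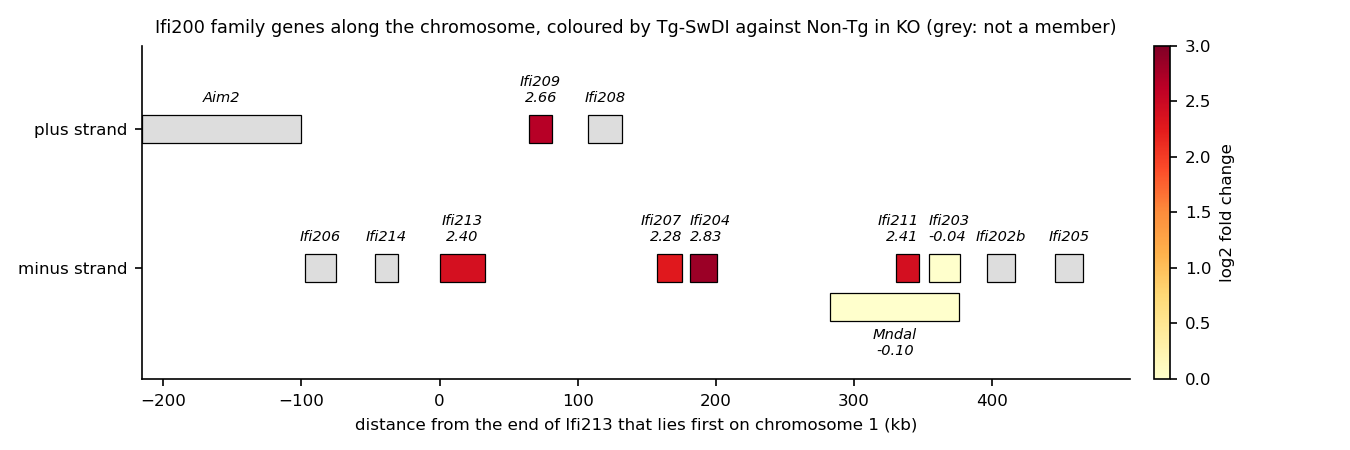
Position of the Ifi200 family genes in kb along chromosome 1, counted from the low-coordinate end of Ifi213, with 1 row per strand and Mndal drawn below because it encloses Ifi211 and most of Ifi203. Colour and number give the log2 fold change of each member in Tg-SwDI against Non-Tg KO mice, grey boxes are other PYHIN genes, and Ifi211 (2.41) lies inside the span of Mndal (-0.10) and next to Ifi203 (-0.04).

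The promoters are shown because interferon is known to act on many genes of this family through the interferon-stimulated response element. Whether it did so here was not tested. RefSeq promoter windows (GRCm38.p6, 250 bases before to 50 bases after each start site) were searched on both strands for the core of the interferon-stimulated response element, which reads GAAA, any 2 bases, then GAAA. It was found for 5 of the 6 members with a window, Ifi203, Ifi207, Ifi211, Ifi213 and Mndal. Of 27025 genes with RefSeq windows of the same length 3.993% held it in at least 1 window, as did 3.443% of the 32851 windows, and the window for Ifi204 was not analysed here. The 60 bases around each match are given on the strand of the gene, with the 10 bases of the core in capitals. All of them lie upstream of the RefSeq start site of their window. The gene spans given above come from another annotation, GENCODE M21, and the stretches of Mndal and Ifi203 lie inside those spans.
Ifi207, chr1:173741816-173741875, minus strand: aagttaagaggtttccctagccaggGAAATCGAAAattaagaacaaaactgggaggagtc
Ifi211, chr1:173913049-173913108, minus strand: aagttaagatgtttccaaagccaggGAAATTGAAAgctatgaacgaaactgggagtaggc
Ifi213, chr1:173599311-173599370, minus strand: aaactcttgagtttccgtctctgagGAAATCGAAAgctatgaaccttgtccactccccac
Mndal, chr1:173880189-173880248, minus strand: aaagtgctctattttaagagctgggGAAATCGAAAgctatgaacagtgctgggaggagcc
Ifi203, chr1:173942493-173942552, minus strand: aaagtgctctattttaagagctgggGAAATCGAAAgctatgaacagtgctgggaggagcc
Ifi209, nearest stretch, chr1:173630755-173630814, plus strand: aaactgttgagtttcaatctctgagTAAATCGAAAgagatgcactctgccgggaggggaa

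The core began 41 bases before the start site in Ifi207, 37 in Ifi211, 73 in Ifi213, 36 in Mndal and 35 in Ifi203. Ifi209 held no match, and its nearest stretch differed from the core by the substitution G1T, with positions counted from the 5′ end of the core, 79 bases before the start site. The windows of Mndal and Ifi203 were identical in 60 of 60 bases, and those of Ifi207 and Ifi211 in 83.3%. Mndal and Ifi203 each had a second RefSeq start site, whose window held TTTCTCTTTC (the core on the other strand) in Mndal and no match in Ifi203. The gamma-activated sequence TTCNNNGAA, found in 8.298% of all windows on either strand, was in none of the member windows. These are matches of letters and do not show that a factor binds.

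The microRNA that the KO mice lack is shown because its seed (bases 2 to 8, in capitals) pairs with the transcripts it represses. The RefSeq mature sequence of mmu-miR-34a-5p lies at chr4:150068473-150068494 on the plus strand.
mmu-miR-34a-5p: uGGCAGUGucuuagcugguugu
Its 7-base matches, CACTGCC and ACTGCCA, were absent from the coding sequence and the 3′ untranslated region of the longest coding transcript of all 7 members. Over the annotation, 18.9% of 3′ untranslated regions and 25.7% of coding sequences held one of them. Among all 31 annotated member transcripts, 2 held a match, and both were of the retained intron type (1 from Ifi203 and 1 from Ifi204). An absent match says only that these letters are not in these sequences.

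Each library held 19549622 to 21066868 counted reads. Thy1, whose promoter drives the transgene, was counted 14341 to 15427 times in the Non-Tg mice and 40573 to 60265 times in the Tg-SwDI mice, so the transgene labels were borne out in all 20, whereas Mir34a itself was not analysed here. Markers of hippocampal neurons were present, with Prox1 at 1999 or more reads and Wfs1 at 2710 or more in every mouse. The library of KO Tg-SwDI replicate 8 stood apart, with 14.563% of its reads on mitochondrial genes against 6.936% to 8.764% in the other 19, and the calls among members that rest on it are given with and without it. Levels are in CPM, read counts scaled to library size after TMM normalization, which corrects library sizes for composition.

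Ifi203 and Mndal were the members with the highest levels, and the other 5 were low in Non-Tg mice. In WT Non-Tg mice, reads of Ifi203 and Mndal made up 75.7% to 94.0% of all reads counted on the family. Per kb of exon, which allows genes to be compared, Mndal was at 0.879 ± 0.080 CPM per kb and Ifi203 at 0.703 ± 0.044 in these mice (SD, n = 5), and neither overlapped the gene next in order. Ifi204 (0.161 ± 0.117), Ifi207 (0.151 ± 0.081), Ifi209 (0.067 ± 0.045), Ifi211 (0.059 ± 0.067) and Ifi213 (0.021 ± 0.013) followed, and each of these overlapped its neighbour in the order.

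**Figure D2:**
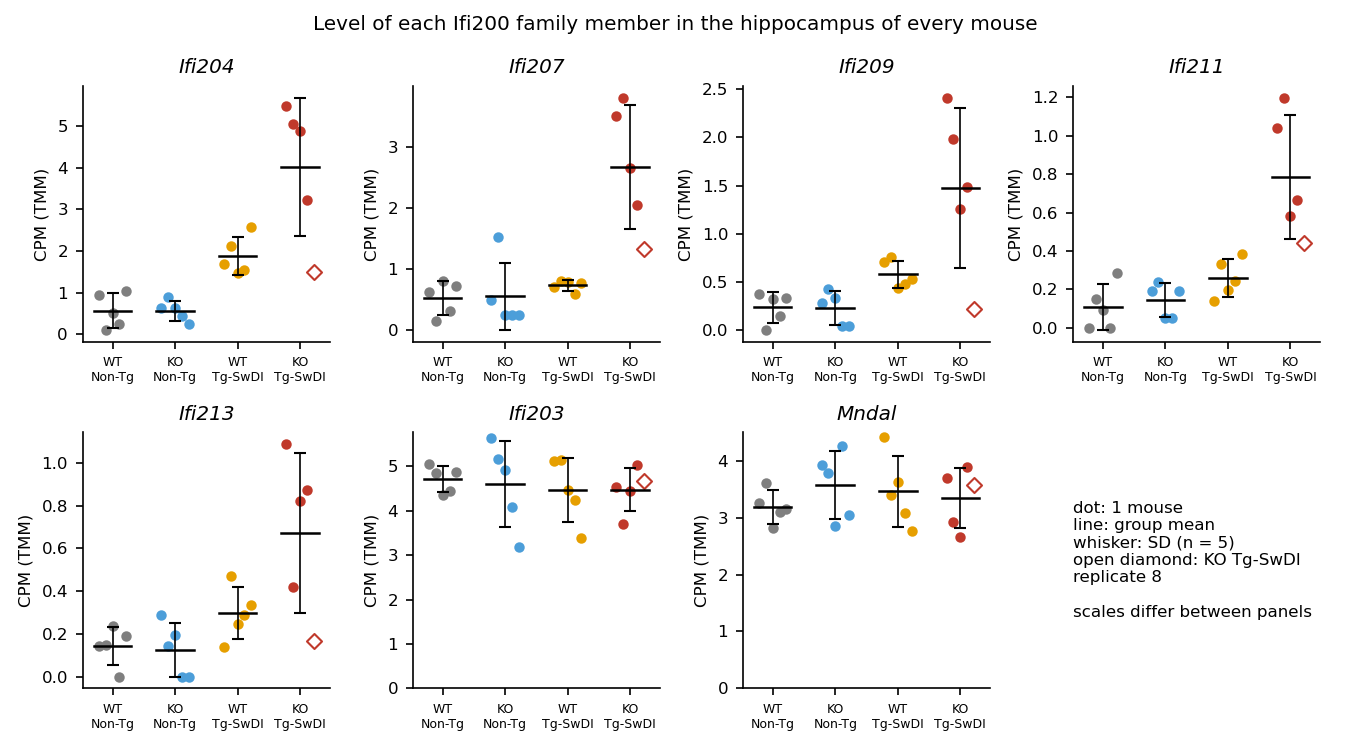
Level of the 7 members in CPM after TMM normalization, 1 dot per mouse, with the group mean as a line and the SD as a whisker (n = 5). Ifi204, Ifi207, Ifi209, Ifi211 and Ifi213 had their highest group mean in KO Tg-SwDI mice, with replicate 8 (open diamond) the lowest of that group, while Ifi203 and Mndal had overlapping values in all 4 groups.

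Ifi204, the DNA sensor, had 20, 2, 11, 5 and 22 reads in WT Non-Tg mice (replicates 2, 3, 4, 6 and 7) and 13, 19, 13, 9 and 5 in KO Non-Tg mice (replicates 1, 2, 4, 7 and 8). In WT Tg-SwDI mice (replicates 3, 4, 5, 6 and 7) it had 36, 45, 30, 32 and 54 reads, and in KO Tg-SwDI mice (replicates 1, 2, 3, 5 and 8) 116, 97, 101, 63 and 27. All Tg-SwDI mice lay above all Non-Tg mice, and the 27 reads of KO Tg-SwDI replicate 8 were fewer than those of any WT Tg-SwDI mouse, although its CPM (1.49) was just above the lowest of them (1.47). The group means were 0.572 ± 0.418 CPM, 0.564 ± 0.246, 1.88 ± 0.466 and 4.03 ± 1.66 in the same order (SD, n = 5).

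Ifi207, a large member that has been tied to STING-dependent signalling, had 13, 3, 17, 6 and 15 reads in WT Non-Tg mice and 10, 32, 5, 5 and 5 in KO Non-Tg mice, each in the order of replicates given for Ifi204. It had 15, 17, 16, 12 and 16 reads in WT Tg-SwDI mice and 74, 73, 55, 40 and 24 in KO Tg-SwDI mice. Here all 5 KO Tg-SwDI mice lay above all WT Tg-SwDI mice, whereas WT Tg-SwDI mice overlapped both Non-Tg groups. The means were 0.515 ± 0.279 CPM, 0.543 ± 0.553, 0.727 ± 0.091 and 2.67 ± 1.02 (groups in the same order).

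Ifi209, the member on the plus strand, had 8, 0, 7, 3 and 7 reads in WT Non-Tg mice and 6, 9, 7, 1 and 1 in KO Non-Tg mice. The reads were 15, 16, 9, 10 and 11 in WT Tg-SwDI mice and 51, 38, 26, 29 and 4 in KO Tg-SwDI mice. Replicate 8 of the KO Tg-SwDI mice was below every WT Tg-SwDI mouse, and the other 4 KO Tg-SwDI mice were above all of them. The means were 0.238 ± 0.159 CPM, 0.229 ± 0.173, 0.582 ± 0.140 and 1.47 ± 0.830.

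Ifi211 and Ifi213 were too low for the filter on low counts that was applied before the tests (edgeR's filterByExpr, at least 10 reads in enough libraries). Ifi211, a short member, had 0, 3, 2, 0 and 6 reads in WT and 4, 5, 1, 1 and 4 in KO mice without the transgene, and 3, 7, 4, 5 and 8 in WT and 22, 23, 12, 13 and 8 in KO mice with it. The CPM of every KO Tg-SwDI mouse was above that of every other mouse. Ifi213 had 3, 3, 5, 0 and 4 reads in WT and 6, 3, 4, 0 and 0 in KO mice without the transgene, and 3, 10, 5, 6 and 7 in WT and 23, 8, 17, 17 and 3 in KO mice with it. Its KO and WT Tg-SwDI mice overlapped, with replicate 8 the lowest of the KO group.

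Ifi203 and Mndal showed another pattern. Ifi203 had 107, 98, 93, 89 and 102 reads in WT and 118, 109, 102, 85 and 66 in KO mice without the transgene, and 109, 109, 91, 88 and 71 in WT and 96, 71, 92, 98 and 85 in KO mice with it. Mndal, named for its likeness to the human myeloid nuclear differentiation antigen, had 69, 73, 60, 62 and 66 reads in WT and 82, 80, 59, 89 and 63 in KO mice without the transgene, and 94, 72, 74, 64 and 58 in WT and 78, 56, 55, 76 and 65 in KO mice with it. The 4 groups overlapped for both genes, with means of 4.47 to 4.72 CPM for Ifi203 and 3.19 to 3.57 CPM for Mndal.

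The first question was what the transgene did to the family in mice without miR-34a. Comparing KO Tg-SwDI with KO Non-Tg mice, 3 of the 5 members that passed the filter rose (Ifi204, Ifi207 and Ifi209) and none fell, by edgeR's quasi-likelihood test at FDR < 0.05 over 16107 genes. Of all genes tested, 12.5% were called higher in this comparison. Ifi209 had at most 9 reads in any Non-Tg mouse and passed the filter through Tg-SwDI mice. Its place among the 5 tested members is therefore not independent of its rise. Ifi204 was 7.09-fold higher (log2 fold change 2.83, SE 0.40, adjusted p = 2.77e-05), Ifi209 6.31-fold (2.66, SE 0.52, adjusted p = 0.000794) and Ifi207 4.86-fold (2.28, SE 0.41, adjusted p = 0.000371). The 2 groups did not overlap for Ifi204, as for 8.47% of all genes tested in the higher direction, and they overlapped for Ifi207 and Ifi209. In the fit without the filter, in which 6.46% of 28691 genes were called higher, Ifi211 (5.31-fold, log2 fold change 2.41, SE 0.45, adjusted p = 7.95e-05) and Ifi213 (5.27-fold, 2.40, SE 0.54, adjusted p = 0.00261) also rose. Fold changes of Ifi211 and Ifi213 rest on 13 to 15 reads over the 5 KO Non-Tg mice.

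In contrast, Ifi203 (log2 fold change -0.04, 95% interval -0.32 to 0.24) and Mndal (-0.10, interval -0.39 to 0.20) were not called in KO Tg-SwDI against KO Non-Tg mice. Their upper bounds lay below the lower bounds of Ifi204 (1.99), Ifi209 (1.58) and Ifi207 (1.42). The difference between members was not itself tested.

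In miR-34a WT mice the transgene comparison gave 1 call among the 5 members, Ifi204, where 3.94% of all genes tested were called higher. Ifi204 was 3.24-fold higher in WT Tg-SwDI than in WT Non-Tg mice (log2 fold change 1.70, SE 0.43, adjusted p = 0.0221), with no overlap between the groups, as for 5.1% of all genes. This call is not firm, since the adjusted p was 0.0739 in the fit without the filter and passed 0.05 when any 1 of 5 mice was left out (WT Non-Tg replicates 3, 4 and 6 and WT Tg-SwDI replicates 4 and 7, with adjusted p from 0.0529 to 0.0726). Ifi209 did not overlap between these groups either but was not called (log2 fold change 1.26, SE 0.59, adjusted p = 0.309). Ifi207 was at 0.48 (SE 0.48, adjusted p = 0.720), and without the filter, where 2.1% of 28691 genes were called higher, Ifi211 was at 1.23 (adjusted p = 0.412) and Ifi213 at 1.0 (adjusted p = 0.605). Ifi203 (-0.08, interval -0.36 to 0.20) and Mndal (0.12, interval -0.18 to 0.42) were not called.

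**Figure D3:**
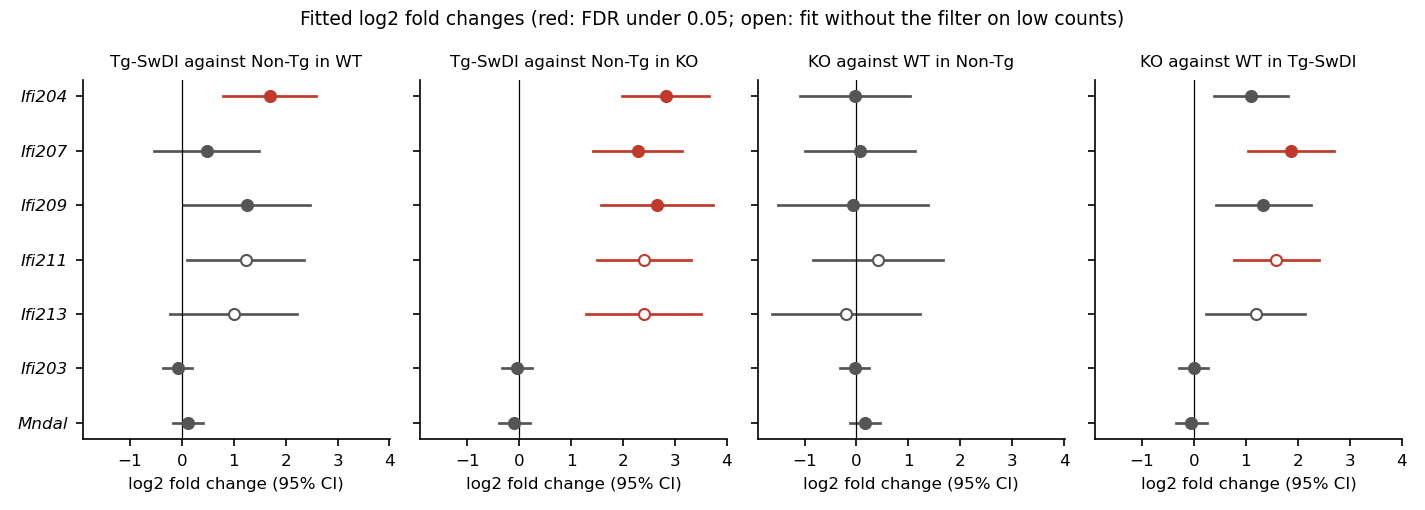
Fitted log2 fold change of each member (horizontal axis) with its 95% interval in 4 comparisons, with adjusted p below 0.05 in red and members fitted without the filter on low counts as open circles. Tg-SwDI against Non-Tg in KO mice has 5 members in red, from 2.28 to 2.83, and KO against WT in Tg-SwDI mice has Ifi207 (1.87) and Ifi211 (1.59).

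The second question was what the loss of miR-34a did. The KO Tg-SwDI mice of this comparison are the same 5 as in the transgene comparison above, so the results share samples. Among Tg-SwDI mice, Ifi207 was the 1 member of 5 called, against 1.48% of all genes called higher, and it rose 3.66-fold in KO mice (log2 fold change 1.87, SE 0.39, adjusted p = 0.0185). Its groups did not overlap, as for 2.04% of all genes in this direction. The call was lost without WT Tg-SwDI replicate 3 (adjusted p = 0.0505) or replicate 7 (adjusted p = 0.0596), while the log2 fold change stayed at 1.72 to 2.04 whichever mouse was left out. Ifi204 (2.14-fold, log2 fold change 1.10, SE 0.34, adjusted p = 0.0899) and Ifi209 (2.53-fold, 1.34, SE 0.44, adjusted p = 0.109) did not pass, and by DESeq2, which called 3.06% of all genes higher, the adjusted p of Ifi204 was 0.0469. Ifi203 (0.00, interval -0.28 to 0.28) and Mndal (-0.05, interval -0.35 to 0.25) were not called. Ifi209 had 9 to 16 reads in WT Tg-SwDI mice and needed KO Tg-SwDI mice to pass the filter. Its place among the 5 tested members is therefore not independent of its level in KO Tg-SwDI mice here either.

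Ifi211 was called without the filter in KO against WT Tg-SwDI mice (3.01-fold, log2 fold change 1.59, SE 0.40, adjusted p = 0.0383), where 0.753% of 28691 genes were called higher. This call was lost without any 1 of 6 Tg-SwDI mice (WT replicates 3, 5, 6 and 7 and KO replicates 1 and 2), with an adjusted p of up to 0.131. Ifi213 was at 1.19 (SE 0.47, adjusted p = 0.261). Mean CPM was also compared by exact two-sided permutation tests, 8 in all for these genes and not adjusted, in which 5 against 5 mice cannot give a p below 0.00794. The exact permutation p for KO against WT Tg-SwDI mice was 0.00794 for Ifi211 and 0.0873 for Ifi213. For Tg-SwDI against Non-Tg mice the exact permutation p was 0.00794 for Ifi211 and 0.0238 for Ifi213 in KO mice, and 0.0635 and 0.0476 in WT mice. Among Non-Tg mice the exact permutation p of KO against WT was 0.627 for Ifi211 and 0.810 for Ifi213.

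Leaving out KO Tg-SwDI replicate 8 changed the KO against WT comparison in Tg-SwDI mice from 1 called member to 3. Without it Ifi204 had a log2 fold change of 1.31 (SE 0.29, adjusted p = 0.0192), Ifi207 of 2.04 (SE 0.38, adjusted p = 0.00716) and Ifi209 of 1.61 (SE 0.35, adjusted p = 0.0141). In the fit without the filter Ifi211 was then at 1.74 (adjusted p = 0.0121) and Ifi213 at 1.43 (adjusted p = 0.0823). Over all genes the number called was similar with (320) and without (335) this mouse. Ifi209, 1 of the 3 called members, was tested through KO Tg-SwDI mice, so its place in this count is not independent of its level in them. The 4 remaining KO Tg-SwDI mice had 4.66 ± 0.990 CPM of Ifi204, 3.0 ± 0.800 of Ifi207 and 1.78 ± 0.517 of Ifi209 (SD, n = 4). Replicate 8 had 1.49, 1.32 and 0.220 CPM of these genes, but 4.68 CPM of Ifi203 and 3.58 CPM of Mndal, which lay within the range of the others. In KO Tg-SwDI against KO Non-Tg mice the same 3 members were called without replicate 8, with log2 fold changes of 2.44 to 3.03.

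In Non-Tg mice no member was called between KO and WT, and 0% of the 16107 genes were called higher or lower by edgeR's quasi-likelihood test. None of the 5 members had an unadjusted p below 0.05, against 1302 of all genes, and neither DESeq2 (7 genes called, 0.0435%) nor edgeR's exactTest (4 genes, 0.0248%) called a member. The estimates were wide for the low members, with log2 fold changes of -0.03 for Ifi204 (interval -1.10 to 1.04), 0.07 for Ifi207 (-0.99 to 1.13) and -0.06 for Ifi209 (-1.51 to 1.39). For Ifi203 (-0.04, interval -0.32 to 0.24) and Mndal (0.17, interval -0.13 to 0.46) they were narrower. A moderate change of the low members in Non-Tg mice was therefore not detectable at this depth.

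The interaction asks whether the transgene changed a gene by a different amount in KO than in WT mice. No member was called, against 0.428% of all genes called with a positive interaction. The log2 interaction was 1.80 for Ifi207 (SE 0.65, unadjusted p = 0.0116, adjusted p = 0.164), 1.40 for Ifi209 (adjusted p = 0.396), 1.13 for Ifi204 (adjusted p = 0.353), 0.04 for Ifi203 and -0.21 for Mndal. By edgeR, Ifi207 was the 1 member of 5 with an unadjusted p below 0.05, as were 2821 of all genes. DESeq2 had 2 such members (Ifi204 and Ifi207), beside 2833 of all genes, called none of the members and gave no adjusted p for 3. Without KO Tg-SwDI replicate 8, 3 members had an unadjusted p below 0.05 in the edgeR fit (Ifi204, Ifi207 and Ifi209), as had 2718 of all genes, and no member was called. Without KO Non-Tg replicate 2 the interaction of Ifi207 was called (2.65, adjusted p = 0.0227).

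**Figure D4:**
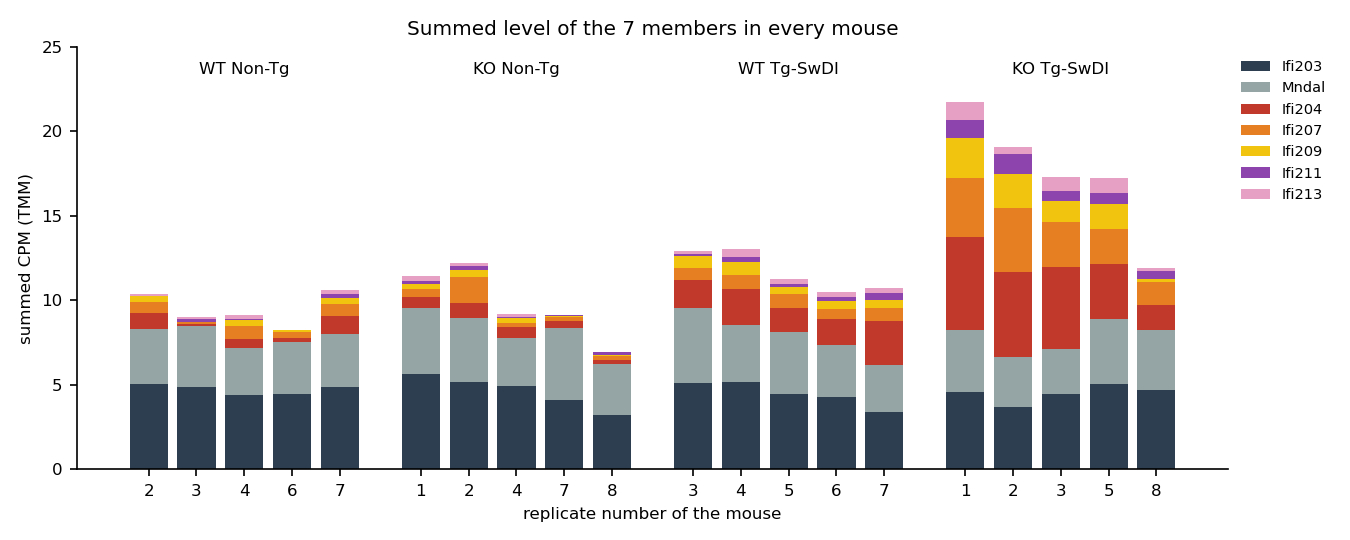
Summed CPM of the 7 members in every mouse, stacked by gene and grouped by genotype and transgene, with replicate numbers below. The part made up of Ifi203 and Mndal is alike in height across groups, and 4 of the 5 KO Tg-SwDI mice reach 17.2 to 21.8 CPM, above all other mice.

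The make-up of the family's RNA is given as a description, without a test. Summed over the 7 genes the level in Non-Tg mice was 9.48 ± 0.990 CPM with miR-34a and 9.78 ± 2.07 CPM without it (SD, n = 5). In Tg-SwDI mice it was 11.7 ± 1.21 CPM with miR-34a and 17.4 ± 3.61 CPM without it, with replicate 8 at 11.9 CPM and the other 4 KO mice at 17.2 to 21.8 CPM. The 5 members other than Ifi203 and Mndal made up 1.57 ± 0.900, 1.61 ± 1.02, 3.75 ± 0.731 and 9.62 ± 3.91 CPM of these 4 sums, in the order given. Reads of Ifi203 and Mndal made up 83.9% ± 8.24 of the family's reads in WT mice without the transgene and 67.8% ± 6.59 with it, and in KO mice 84.5% ± 7.01 and 47.0% ± 14.1. Per kb of exon, Ifi204 was first in KO Tg-SwDI mice (1.13 ± 0.466 CPM per kb), followed by Mndal (0.923 ± 0.146), Ifi207 (0.779 ± 0.299), Ifi203 (0.668 ± 0.072), Ifi211 (0.440 ± 0.180), Ifi209 (0.415 ± 0.234) and Ifi213 (0.098 ± 0.055), and every neighbour in this order overlapped. With the longest transcript as the length, Ifi203 (1.19) stood before Ifi207 (0.779) instead.

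Markers of microglia had their highest summed group mean in KO Tg-SwDI mice, as did the 5 low members, but not Ifi203 and Mndal. The summed CPM of 10 microglia markers was 383 to 483 (WT) and 383 to 413 (KO) among Non-Tg mice, and 734 to 874 (WT) and 890 to 1193 (KO) among Tg-SwDI mice. All 10 were called higher with the transgene in both WT and KO mice, and 3 of 10 (Csf1r, Siglech and Sall1) in KO against WT Tg-SwDI mice (5 of 10 without replicate 8). Of all genes, 3.94% (WT) and 12.5% (KO) were called higher with the transgene, and 1.48% in KO against WT Tg-SwDI mice. The ratio of group means in KO Tg-SwDI to KO Non-Tg mice was 2.60 for the 10 markers, while Ifi204 was 7.09-fold and Ifi203 0.973-fold. In WT mice the ratio was 1.96 for the markers, while Ifi204 was 3.24-fold, Ifi207 1.40-fold (not called) and Ifi203 0.949-fold. Replicate 8 was the lowest KO Tg-SwDI mouse both for the markers (890 CPM) and for the summed 5 low members (3.63 CPM, inside the 3.14 to 4.59 CPM of WT Tg-SwDI mice). With the mean level of the markers in each mouse as a covariate, no member was called in any comparison, and the log2 fold changes of Tg-SwDI against Non-Tg in KO mice became negative for Ifi204 (-1.94, adjusted p = 0.465), Ifi207 (-2.40, adjusted p = 0.424) and Ifi209 (-2.01, adjusted p = 0.639). For KO against WT Tg-SwDI mice the log2 fold changes went from 1.87 to 0.66 for Ifi207 (adjusted p = 0.462), from 1.34 to 0.11 for Ifi209 and from 1.10 to -0.15 for Ifi204. Over all genes, the fit with this covariate called 26 genes in Tg-SwDI against Non-Tg KO mice, against 3351 without the covariate. It called 18 against 710 in WT mice, and 786 against 320 in KO against WT Tg-SwDI mice. The summed markers did not overlap between Tg-SwDI and Non-Tg mice, nor between KO and WT Tg-SwDI mice, so the groups and the markers cannot be told apart in that fit.

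**Figure D5:**
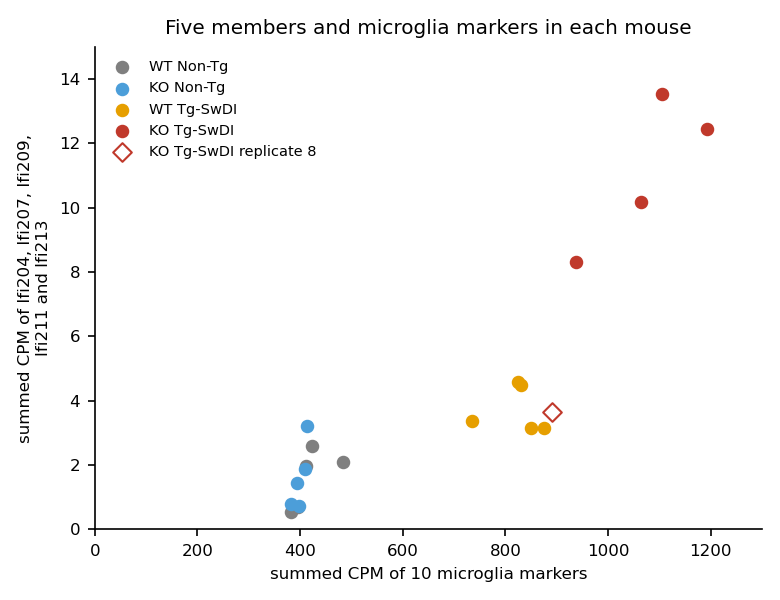
Summed CPM of Ifi204, Ifi207, Ifi209, Ifi211 and Ifi213 (vertical axis) against the summed CPM of 10 microglia markers (horizontal axis), 1 point per mouse and 1 colour per group. Non-Tg mice lie at 0.545 to 3.22 CPM of the members, WT Tg-SwDI mice at 3.14 to 4.59 and KO Tg-SwDI mice at up to 13.5 with replicate 8 (open diamond) at 3.63.

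Markers of other cell types were measured as well, and those of circulating immune cells were low. All 7 lymphocyte markers failed the filter. Their summed level was 0.400 to 1.37 CPM (WT) and 0.386 to 0.948 CPM (KO) among Non-Tg mice and 0.756 to 1.41 CPM (WT) and 0.869 to 2.03 CPM (KO) among Tg-SwDI mice. In the fit without the filter 2 of the 7, the T cell markers Cd3g (log2 fold change 2.55, adjusted p = 0.0158) and Cd8a (2.24, adjusted p = 0.0137), were called higher in KO Tg-SwDI than in KO Non-Tg mice, with no overlap. That fit called 6.46% of 28691 genes higher in this comparison. Of 5 monocyte or neutrophil markers 1 passed, and their sums were 0.350 to 1.76 CPM and 0.482 to 0.815 CPM in the Non-Tg groups (WT, KO) and 0.844 to 1.18 CPM and 0.261 to 1.54 CPM in the Tg-SwDI groups. Of these, Ly6c2 was called higher without the filter in KO Tg-SwDI against KO Non-Tg mice (2.16, adjusted p = 0.0404). None of 5 border macrophage markers was called in any comparison by edgeR's quasi-likelihood test, and their sums overlapped (6.78 to 14.8 CPM in KO Tg-SwDI and 5.69 to 9.95 CPM in WT Tg-SwDI mice). In Tg-SwDI against Non-Tg mice 2 of 5 astrocyte markers (Gfap and Aqp4) were called higher in KO mice and 3 of 5 (with Slc1a2) in WT mice, beside 12.5% and 3.94% of all genes. In KO mice 4 of 5 oligodendrocyte markers were also called higher (median log2 fold change 0.26) and 2 of 5 neuron markers lower, and neither of these latter lists had a call in WT mice. Of all 16107 genes, 1338 were called lower with the transgene in KO mice. Of 5 endothelium markers, 1 was called higher with the transgene in KO mice (2 without replicate 8). In KO against WT Tg-SwDI mice 1 of 5 endothelium and 1 of 5 astrocyte markers were called higher, beside 1.48% of all genes. Without replicate 8 these were 1 and 0. Choroid plexus markers differed widely between mice (60.7 to 4278 CPM summed), with 62.5 to 344 CPM in KO Non-Tg mice. In KO Tg-SwDI against KO Non-Tg mice 6 of 8 were called higher (median log2 fold change 2.91, and 2 of 8 called without replicate 8), and with their level as a covariate the calls among members were the same as without it. The part of each cell type in the changes of the members was not tested.

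The other PYHIN genes were looked at beside the members. Aim2, the sensor of the AIM2 inflammasome, passed the filter and rose in KO Tg-SwDI against KO Non-Tg mice (1.58-fold, log2 fold change 0.66, SE 0.15, adjusted p = 0.00343), from 3.34 ± 0.397 to 5.25 ± 0.955 CPM without overlap, and was also called without replicate 8 (0.74). In WT mice the difference was 0.50 (adjusted p = 0.0723), and KO against WT Tg-SwDI mice gave 0.18 (adjusted p = 0.538). Ifi206 had 0 to 5 reads in Non-Tg, 2 to 7 in WT Tg-SwDI and 0 to 16 in KO Tg-SwDI mice, and Ifi208 had 0 to 5, 0 to 7 and 3 to 13. Without the filter both rose in KO Tg-SwDI against KO Non-Tg mice (Ifi206 with log2 fold change 2.30 and adjusted p = 0.00442, Ifi208 with 2.72 and adjusted p = 0.00144). Ifi202b, Ifi205 and Ifi214 had at most 3 reads in any mouse.

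Genes of DNA sensing, inflammasome and interferon signalling were taken from a list of 34, of which 31 passed the filter. In KO against WT Tg-SwDI mice 3 were called higher and none lower, beside 1.48% of all genes called higher, and the median log2 fold change of the 31 was 0.20 beside 0.00 over all genes. The 3 were Irf9 (0.73, SE 0.16, adjusted p = 0.0267) and Stat2 (0.41, SE 0.09, adjusted p = 0.0232), which form part of the complex that binds the interferon-stimulated response element, and Ifnar2 (0.40, SE 0.09, adjusted p = 0.0250), a chain of the type I interferon receptor. The calls were lost when 1 mouse was left out in 4 of 20 cases for Irf9, 3 for Stat2 and 2 for Ifnar2. Without KO Tg-SwDI replicate 8 the number called higher was 8, beside 284 of all 16107 genes. In Tg-SwDI against Non-Tg mice 22 of the 31 were called higher and 1 lower in KO mice (median 0.49), and 6 higher in WT mice (median 0.15), beside 12.5% and 3.94% of all genes called higher, whereas KO against WT Non-Tg mice gave none by edgeR's quasi-likelihood test (median -0.11). The interaction was positive and called for 2 of the 31, beside 0.428% of all genes.

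Sequence shared between members limits how far single genes can be separated, since how reads with more than 1 matching gene were counted is not given in the sources used here. In the longest coding transcript, the share of bases lying in stretches of 100 that occur unchanged in another gene was 75.9% for Ifi211, 40.4% for Ifi209, 31.1% for Ifi213, 29.1% for Ifi204, 21.9% for Mndal, 8.5% for Ifi203 and 6.58% for Ifi207. Ifi211 shared 826 bases with Ifi205, 529 with Ifi204 and 306 with Mndal. Ifi209 shared its stretches with Ifi214 alone (1390 bases), which had at most 1 read in any mouse. Ifi207, the member called in KO against WT Tg-SwDI mice, was the one with the least shared sequence. Ifi211 had both the largest shared part and low counts.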

How the data were processed

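RNA of the left hippocampus went into stranded mRNA libraries. The authors aligned the reads to mm10 with STAR and counted them over ENSEMBL genes with FeatureCounts, and the deposited values are unnormalized whole-number counts. The strand setting is not given in the sources used here. Mice were grouped by the genotype in their labels. Of 39056 gene identifiers, 38872 (99.5%) matched the GENCODE M21 annotation.

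Genes were filtered with filterByExpr (minimum count 10, minimum total 15), which left 16107, and TMM normalized. A model with 4 group means over all 20 mice was fitted with edgeR 4.0.16 (glmQLFit, robust) in R 4.3.3, with Benjamini-Hochberg adjustment over all genes and FDR 0.05. SE is the log2 fold change divided by the square root of F. Members under the filter were read from the same fit on 28691 genes with at least 1 read and from exact permutation tests of CPM. Log2 CPM used a prior count of 2. DESeq2 1.42.0 and other settings were alternatives. The fit was tested on simulated data. Libraries of 19549622 to 21066868 reads leave genes under 10 reads with large counting error.

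The members and lists were chosen with earlier results of these data known. The text names the 7 members with every value, the other PYHIN genes, the listed signalling genes called in KO against WT Tg-SwDI mice, and the 5 genes most like the members.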

Additional observations from a re-analysis of the deposited data

Results flagged for a closer look

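Dixon's test at 95% was applied to the CPM of the 7 members in the 4 groups of 5 mice, 28 sets of values in all, of which chance alone flags about 1 in 20. It marked 1 value. KO Non-Tg replicate 2 had 1.52 CPM of Ifi207 (32 reads), while the other 4 KO Non-Tg mice had 0.240 to 0.478 CPM. The gap was 0.813 of the range of the group, above the critical value of 0.71. The same mouse was also the highest of its group for Ifi204 (19 reads) and Ifi209 (9 reads). For the summed microglia markers it was barely the highest of its group (413 CPM, beside 411 CPM in KO Non-Tg replicate 1). Without it the interaction of Ifi207 was called (log2 interaction of 2.65 in the edgeR fit, adjusted p = 0.0227), which it was not with all 20 mice (1.80, adjusted p = 0.164).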

How the results depend on the processing

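Of 935 values of the members under alternative settings, 911 kept their side of the threshold, 16 lost and 4 gained a call, and 4 called values changed sign. The number of called members in KO against WT Tg-SwDI mice was 1, and it was 2 by DESeq2 (Ifi204 and Ifi207), 2 without the filter (Ifi207 and Ifi211), 0 with the microglia marker covariate and 0 to 3 with 1 mouse left out. In Tg-SwDI against Non-Tg KO mice it was 3, and 5 without the filter, 0 with the microglia marker covariate and 3 whichever mouse was left out. In Tg-SwDI against Non-Tg WT mice it was 1, and 0 without the filter, 0 with the microglia marker covariate and 0 to 1 with 1 mouse left out. The interaction gave 0, and 0 to 1 with 1 mouse left out. The microglia marker covariate turned the sign of Ifi204 (-1.94), Ifi207 (-2.40) and Ifi209 (-2.01) in KO mice and of Ifi204 (-1.42) in WT mice for Tg-SwDI against Non-Tg. The cause of these changes was not tested. Library size alone, RLE factors, the 2 compared groups alone, edgeR's exactTest and the choroid plexus covariate changed no call among the members. The stricter filter removed Ifi209. DESeq2, the block and the other alternatives were run on genes that passed the filter, so Ifi211 and Ifi213 have only the fit without it and, chosen after seeing the data, that fit with each mouse left out.

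Over all genes the number called in KO against WT Tg-SwDI mice was 320, with 79 to 689 when 1 mouse was left out and 8 to 786 under the other settings. It was 3351 (2485 to 3772, and 26 to 3617) in KO mice and 710 (538 to 995, and 18 to 953) in WT mice for the transgene, 0 (0 to 3, and 0 to 7) for KO against WT Non-Tg mice, and 98 (14 to 473, and 31 to 479) for the interaction.

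Mice with the same replicate number in the labels did not, as a set, deviate alike. That cannot exclude that some of them shared a litter or a batch. Deviations from the group means correlated at -0.404 to 0.154 over 16 pairs of mice with the same number (median -0.039), with 2 pairs above 0.1. With the replicate number as a replicate block, 0 members were called in KO against WT Tg-SwDI mice (Ifi207 with log2 fold change 1.61 and adjusted p = 0.178, 3 members with an unadjusted p below 0.05), and the calls among members in the other comparisons were the same. Of all 16107 genes, 8 were called in KO against WT Tg-SwDI mice with the block, and 1592 had an unadjusted p below 0.05.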

Other observations

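With log2 CPM centred on the group means over the 20 mice, Pearson's r was 0.87 for Ifi204 and Ifi209, 0.79 for Ifi204 and Ifi207 and 0.78 for Ifi207 and Ifi209. It was 0.54 for Ifi203 and Mndal, which share the identical promoter stretch and 37 exonic bases. Ifi204 with Mndal gave -0.22 and Ifi204 with Ifi203 gave 0.17, while Ifi203 with Ifi209 gave 0.29. Without KO Tg-SwDI replicate 8 the first 3 values were 0.85, 0.77 and 0.77, and Ifi203 with Ifi209 was at 0.41. These are descriptions over mice that also share their library's depth and cell make-up, and reads of shared stretches could enter more than 1 gene.

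The 5 genes outside the PYHIN family whose centred levels followed the mean of the 5 tested members most closely, of 16101 genes scored, were Nnt (r = 0.84 over 20 mice), which encodes the mitochondrial nicotinamide nucleotide transhydrogenase, Helz2 (0.81), an interferon-inducible helicase, Plcd4 (0.80), a phospholipase C, A330048O09Rik (0.80) and Tor3a (0.79), an interferon-inducible member of the torsin family. Without centring on the group means, Helz2 (0.85, rank 4), Tor3a (0.81, rank 16), A330048O09Rik (0.78, rank 67) and Plcd4 (0.70, rank 358) remained positive, and Nnt was at 0.20 (rank 4885).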
